A study of Mus musculus with 8 samples.

Results

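The data compared cells that had lost Lats1 with cells that kept it, across the sorted populations of a mouse mammary tumor model. The 8 libraries of the series were split into 4 Lats1-CKO and 4 WT libraries, so that all 8 entered the comparison. The Lats1-CKO libraries were 2 of luminal cells (EpCAM-high, CD49f-high) and 2 of basal-like cells (EpCAM-low, CD49f-high), and the WT libraries were 2 of each population from the same gates. All cells came from lines grown out of mammary tumors in which the mouse mammary tumor virus promoter, active mainly in mammary epithelium, drives the polyoma middle T oncogene (PyMT), and every line is labelled with the strain FBV/N and grown in DMEM with serum and antibiotics. Lats1-CKO marks a conditional deletion of Lats1. Its Cre driver, the deleted exons, the age of the mice and the number of lines behind the 8 libraries are not given in the sources used here. Sorted cells were expanded briefly before RNA was taken, so the values are those of cultured cells. A gene was said to separate the genotypes where its lowest value in 1 genotype lay above its highest in the other. The files listed 10924 genes, and 9031 of them, with a value of 10 or more in 2 or more libraries, were tested. Of these, 411 separated the 4 Lats1-CKO from the 4 WT libraries.

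LATS1 is a serine/threonine kinase of the Hippo pathway. With its paralog LATS2 it is activated by the MST kinases through the scaffold SAV1, and phosphorylates the coactivators YAP and TAZ, which are then held in the cytoplasm or degraded. Unphosphorylated YAP and TAZ enter the nucleus and act with TEAD transcription factors on genes of growth, adhesion and the matrix. In mammary epithelium luminal cells line the duct and express the keratins KRT8 and KRT18 with E-cadherin, while basal cells lie outside them, contact the basement membrane and express KRT5 and KRT14.

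RNA was read by MARS-seq, which barcodes RNA at reverse transcription and sequences the 3' ends of transcripts. Values are normalized read counts, that is reads divided by a size factor for each library, and the table held 1070358 to 2334446 reads a library, so that 1 read was worth 0.638 to 1.35. Where 4 values are given for a genotype, the luminal replicates 1 and 2 precede the basal-like replicates 1 and 2. The labels do not say whether libraries of a genotype came from separate lines or cultures, so that every p reflects the variation among these 8 libraries alone, which may be technical. WT luminal replicate 1 stood apart by a low sum over 20 genes of the G2 and M phases, 807, against 1799 to 4565 in the other 7 libraries. Lats1-CKO luminal replicate 2 and Lats1-CKO basal-like replicate 2 stood apart by cartilage genes, with sums of 5128 and 32000 over 11 genes, against 301 to 700 in the other 6.

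Lats1 itself (chromosome 10, 7681214 to 7716460, plus strand, GRCm38) followed the labels. Its normalized read count was 13.4 and 9.08 in luminal and 8.04 and 11.6 in basal-like Lats1-CKO cells, against 41.9 and 62.5 in luminal and 30.3 and 42.2 in basal-like WT cells. No Lats1-CKO value reached the lowest WT value, with 10.6 ± 2.45 against 44.2 ± 13.4 (SD, n = 4 each), or 23.9% of WT. A two-sided exact permutation test over the 70 ways to assign the genotype labels gave p = 0.0286, and an exact permutation test over the 36 ways that keep the populations apart gave p = 0.0556. Each is the lowest p that its test allows. Both tests treat the 8 libraries as independent, which the labels do not establish. Tags from the 3' end can lie outside the deleted exons, so the level does not measure the deletion. In limma, a linear model fitted to log2(value + 1) over all genes tested with population as a covariate, the log2 fold change of Lats1 was -1.95 ± 0.30 (SE, adjusted p = 0.129 by limma).

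Lats1 was 1 of 2 genes that separated among 17 tested genes of the Hippo core. Sav1, the scaffold of the MST kinases, was the other, with 51.8, 53.5, 67.0 and 55.7 in the Lats1-CKO libraries, against 39.2, 37.0, 49.0 and 35.8 in the WT libraries, and a gap of 0.080 on the log2 scale between the closest libraries. Its log2 fold change was 0.50 ± 0.21 (SE) and limma did not call it (adjusted p = 0.470). Lats2, the paralog, overlapped between the genotypes, with 71.5 ± 15.7 in Lats1-CKO and 52.6 ± 13.01 in WT (SD, n = 4 each).

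Of the 9031 genes tested, 220 (2.44%) were higher in all 4 Lats1-CKO libraries than in all 4 WT libraries and 191 (2.11%) were lower. The whole table, with genes under the filter, held 260 and 228. These shares are the background for every count of separating genes given here. Of the 220, 60 were under 10 in every WT library, and of the 191, 33 were under 10 in every Lats1-CKO library. Such genes passed the filter only through the genotype in which they were high, so their direction was fixed by the filter and their count supports nothing. The limma test, at a Benjamini-Hochberg adjusted p under 0.05, called 2 of 9031 genes (0.0221%), both higher in Lats1-CKO and both separating, and 903 genes had an unadjusted p under 0.05, of which 476 were higher and 427 lower. On the reads recovered from the table, edgeR called 0 genes (0.0%), and 938 genes had an unadjusted p below 0.05. By contrast, DESeq2 called 171 higher (1.89%) and 87 lower (0.963%), and 132 of its 258 genes separated the genotypes, 86 higher and 46 lower. The number called therefore rested on the tool, and genes are described below by their values in every library, with the word rose kept for a gene that limma called. Since separation uses the same libraries as the tests, the tests of separating genes are no independent evidence.

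The size of the difference varied widely among the separating genes. Of the 220 higher genes 112 had a fold change of at least 2, 67 of at least 4 and 38 of at least 8, and of the 191 lower genes the numbers were 84, 37 and 9. These counts, and those of gaps, did not leave out the 60 higher and 33 lower genes that passed the filter through 1 genotype alone. Gaps were mostly small: 19 higher and 12 lower genes kept a gap of at least 1 on the log2 scale between the closest libraries. At the edge of the rule, with genes chosen after their values were seen, the apoptosis effector Bak1 separated by 0.000224 and the Ras GTPase-activating protein Rasa3 by 0.0012, while Babam1, a subunit of a BRCA1 complex, had a gap of -0.000403, all on the log2 scale and leaving out ties. When sizes of the libraries were set by TMM or by total reads instead, 182 of the 220 and 172 of the 191 separated under both. Which libraries met across the gap was uneven. WT basal-like replicate 2 was the WT library closest to Lats1-CKO for 89 of the 220 higher and 80 of the 191 lower genes, and Lats1-CKO luminal replicate 1 was the Lats1-CKO library closest to WT for 87 and 89. Since fewer libraries have to be kept apart, leaving out a library raised the count of 411 in each case. With WT basal-like replicate 2 left out it became 1029, and with Lats1-CKO luminal replicate 1 left out 960. The count was 748 when Lats1-CKO luminal replicate 2 was dropped, 713 when WT luminal replicate 1 was, 630 when WT basal-like replicate 1 was, and was 511 to 583 when any of the other 3 was.

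**Figure D1:**
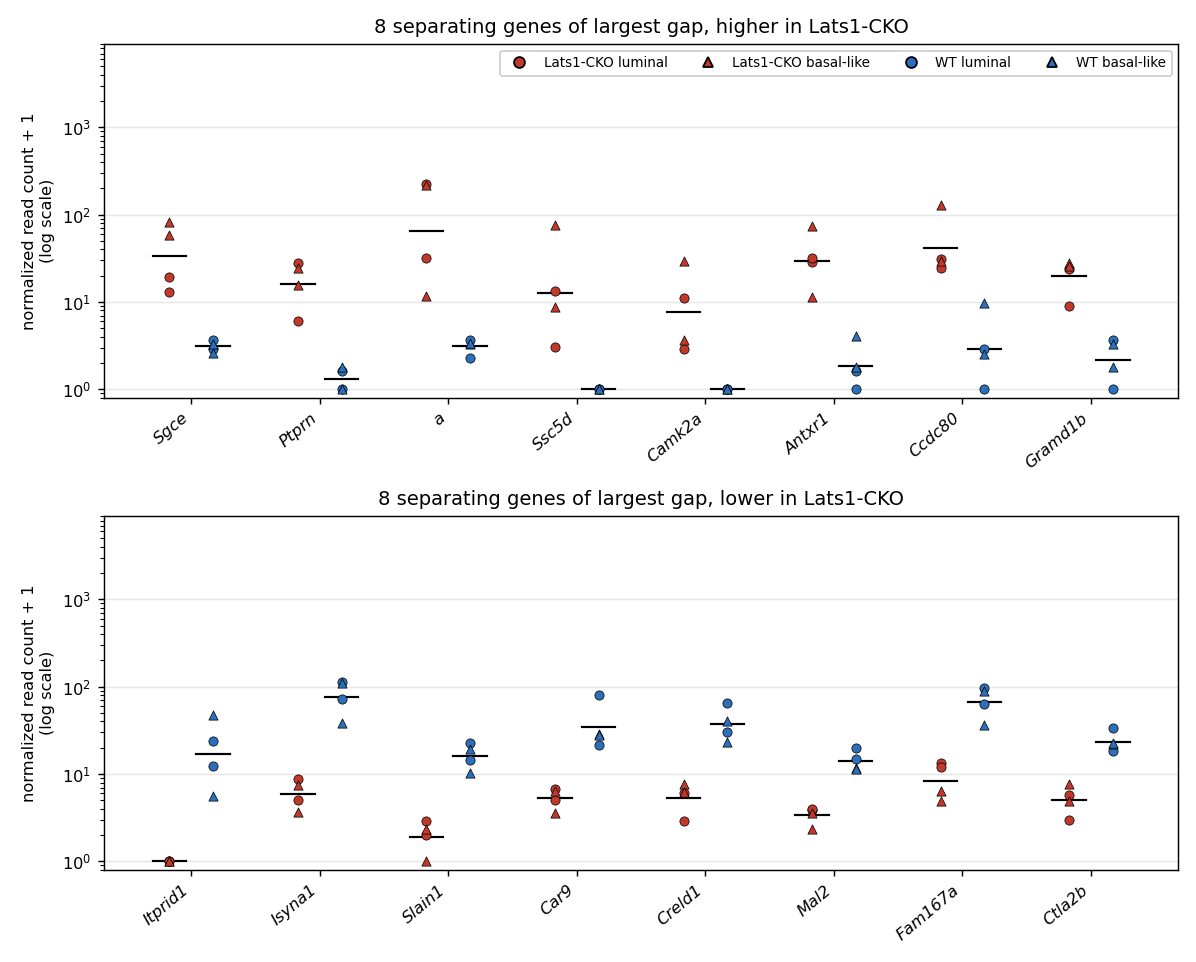
Normalized read count plus 1 (log axis) of the 8 separating genes of largest gap in each direction, genes on the horizontal axis. Red symbols to the left of each gene are the 4 Lats1-CKO libraries and blue symbols to the right the 4 WT libraries. Circles are luminal and triangles basal-like, with a bar at the mean of the log values. The genes were picked for their gap, so red and blue could not overlap. All but Fam167a stayed under 10 in every library of the genotype in which they were lower, so the filter fixed their direction. Ssc5d, Camk2a and Itprid1 are at 0 in every library of 1 genotype.

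Col6a2 rose in Lats1-CKO cells, and was higher in each population. Col6a2 (chromosome 10, 76595762 to 76623630, minus strand), a chain of the collagen VI microfibril, had 117 and 305 in luminal and 611 and 1653 in basal-like Lats1-CKO cells, against 9.46 and 8.29 in luminal and 14.8 and 52.5 in basal-like WT cells. Its highest WT value, in WT basal-like replicate 2, stayed below its lowest Lats1-CKO value, in Lats1-CKO luminal replicate 1. The log2 fold change was 4.69 ± 0.51 (SE, adjusted p = 0.0496 by limma), with 4.27 in luminal and 5.11 in basal-like cells. The call sits at the threshold: it was made in 7 of 20 alternatives, with adjusted p between 1.17e-15 and 0.314, the lowest from DESeq2 and the highest from limma without WT luminal replicate 2. Among the 8 fits without 1 library, Col6a2 kept its call only without Lats1-CKO luminal replicate 1. The direction was positive in all 20.

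The largest gap on the higher side was that of Sgce. Sgce (chromosome 6, 4674350 to 4747207, minus strand), the imprinted gene of ε-sarcoglycan in the dystrophin-associated complex, had 18.2 and 12.1 in luminal and 80.4 and 58.2 in basal-like Lats1-CKO cells, against 2.70 and 1.91 in luminal and 2.33 and 1.59 in basal-like WT cells. The WT libraries were at 2.13 ± 0.485 (SD, n = 4) but held only 10 reads in all, too few to show how far WT expression varied. The basal-like Lats1-CKO libraries were above the luminal ones (log2 fold change 3.42 ± 0.54, SE, adjusted p = 0.137 by limma and 3.7e-06 by DESeq2). Ptprn, a phosphatase-like protein of dense-core secretory granules, gave 26.9, 5.05, 14.7 and 23.3 in the Lats1-CKO libraries, against 0, 0.638, 0 and 0.796 in WT. That is 62 reads against 2, a ratio of 42.3 with a 95% exact counting interval of 11.2 to 357. The interval covers counting error only, not the spread among libraries, and Ptprn was named for its gap. The agouti gene, written a in the table (chromosome 2, 154791402 to 155051012, plus strand), encodes the secreted antagonist of melanocortin receptors known from coat color. It had 30.7 and 223 in luminal and 10.7 and 219 in basal-like Lats1-CKO cells, against 2.70 and 1.28 in luminal and 2.33 and 2.39 in basal-like WT cells. The replicates numbered 2 of each Lats1-CKO population were far above those numbered 1, and all 4 were above WT. The labels do not say whether libraries of the same number share a line, and the test treats the 4 as independent. Sgce, Ptprn and the agouti gene stayed under 10 in every WT library. They passed the filter through Lats1-CKO alone, which fixes their direction.

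Some genes of the higher set were absent from every WT library. Ssc5d, a secreted scavenger receptor, had 12.5, 2.02, 75.0 and 7.77 in the Lats1-CKO libraries, 77 reads in all, against 0 reads in WT, which made it at least 35.0-fold higher with the floor of 3 reads taken over the WT group. Camk2a, the α subunit of a calcium/calmodulin-dependent kinase, had 36 reads against 0, at least 16.4-fold higher by the same floor. Layn, a hyaluronan receptor, and Gata4, a GATA transcription factor, which were chosen after their values were seen, completed the 4 genes with 0 WT reads (52 and 51 reads in Lats1-CKO). In each of the 4 the lowest Lats1-CKO library held only 1 or 2 reads. Such intervals and floors cover counting error only. All 4 genes passed the filter through Lats1-CKO alone, which fixes their direction.

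The other leading genes had reads in both genotypes, though few in WT for some. Pmp22, a membrane protein of compact myelin that is also found in epithelia, had 53.7 and 53.5 in luminal and 383 and 331 in basal-like Lats1-CKO cells, against 10.8 and 3.19 in luminal and 11.7 and 23.1 in basal-like WT cells, and just missed the call (log2 fold change 3.66 ± 0.44, SE, adjusted p = 0.0501 by limma). Sdc3, a transmembrane heparan sulfate proteoglycan, had 87.3 and 295 in luminal and 139 and 1232 in basal-like Lats1-CKO cells, against 27.03 and 37.6 in luminal and 25.6 and 28.6 in basal-like WT cells. The WT values of Sdc3 lay within a narrow band and the Lats1-CKO values did not. Antxr1, a receptor that binds collagen, had 10.4 to 73.7 in Lats1-CKO, against 0 to 3.11 in WT. Ccdc80, a secreted matrix protein, had 23.2 to 129 in Lats1-CKO, against 0 to 8.75 in WT. Sh3bp1, a GTPase-activating protein for Rac, had 44.01 to 121 in Lats1-CKO, against 15.9 to 18.3 in WT, where it varied little. Gramd1b, which moves cholesterol from the plasma membrane, Prr5, a subunit of the mTORC2 kinase complex, and Mrgprf, an orphan receptor, were also among the 15 genes of largest gap, with log2 fold changes of 3.19, 2.51 and 3.92. None of these was called by limma, where their adjusted p lay between 0.0501 and 0.189. Antxr1, Ccdc80, Gramd1b, Prr5 and Mrgprf stayed under 10 in every WT library, so the filter fixed their direction.

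The lower set was led by genes that were nearly silent in Lats1-CKO. Itprid1 (chromosome 6, 55836895 to 55978735, plus strand) had 0 reads in each of the 4 Lats1-CKO libraries, against 23.0 and 11.5 in luminal and 4.66 and 46.1 in basal-like WT cells, or 99 reads. With the floor of 3 reads over the Lats1-CKO group it was at least 24.2-fold lower. Isyna1 (chromosome 8, 70594373 to 70597290, plus strand), the enzyme that makes inositol phosphate from glucose 6-phosphate, had 7.68 and 4.04 in luminal and 2.68 and 6.47 in basal-like Lats1-CKO cells, against 112 and 72.1 in luminal and 110 and 37.4 in basal-like WT cells. The log2 fold change was -3.78 in luminal and -3.64 in basal-like cells, and over both it just missed the call (-3.71 ± 0.43, SE, adjusted p = 0.0501 by limma). Slain1, a protein of growing microtubule ends, had 1.92, 1.01, 1.34 and 0 in Lats1-CKO, against 13.5, 21.7, 9.33 and 18.3 in WT. Car9, the hypoxia-induced carbonic anhydrase IX, had 5.76, 4.04, 5.36 and 2.59 in Lats1-CKO, against 20.3, 79.1, 28.0 and 27.1 in WT. All 4 genes kept more than a 3-fold gap between the closest libraries. All 4 also stayed under 10 in every Lats1-CKO library, so the filter fixed their direction.

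Promoters of leading genes are printed here where they hold one of the motifs searched. Since they were picked by the motif, they do not show what sequence is usual at separating genes. The window of RefSeq (GRCm38.p6) runs from 250 bases before to 50 after the start that RefSeq gives, which can differ from the GENCODE gene start. In order of gap, Ptprn, the agouti gene and Prr5 on the higher side and Itprid1, Isyna1 and Slain1 on the lower side had an entry and were searched, while Sgce, Ssc5d, Camk2a, Antxr1, Ccdc80 and Gramd1b were not matched. Capitals mark CACCTG (the E-box bound by ZEB and SNAI repressors) and AGGTCA (a single arm of the palindromic estrogen response element), on either strand. GGAATG (TEAD) and TGANTCA (AP-1) were searched as well and were in none of the 6. The agouti gene, Prr5 and Isyna1 held none of the motifs searched and are not printed. The windows are chr6:55836768-55837067 (plus strand) for Itprid1, chr14:103649978-103650277 (plus strand) for Slain1 and chr1:75264159-75264458 (minus strand) for Ptprn.
Itprid1: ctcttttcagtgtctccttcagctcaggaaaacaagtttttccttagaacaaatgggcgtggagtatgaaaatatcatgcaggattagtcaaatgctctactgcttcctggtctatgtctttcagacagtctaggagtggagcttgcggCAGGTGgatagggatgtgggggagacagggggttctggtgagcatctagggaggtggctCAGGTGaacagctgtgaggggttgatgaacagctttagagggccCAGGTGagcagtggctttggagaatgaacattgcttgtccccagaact
Slain1: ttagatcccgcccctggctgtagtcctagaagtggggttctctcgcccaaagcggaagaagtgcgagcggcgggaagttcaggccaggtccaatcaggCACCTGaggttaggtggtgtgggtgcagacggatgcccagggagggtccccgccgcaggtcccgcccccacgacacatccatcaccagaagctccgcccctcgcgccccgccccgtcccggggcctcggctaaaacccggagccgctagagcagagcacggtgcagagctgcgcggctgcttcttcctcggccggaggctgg
Ptprn: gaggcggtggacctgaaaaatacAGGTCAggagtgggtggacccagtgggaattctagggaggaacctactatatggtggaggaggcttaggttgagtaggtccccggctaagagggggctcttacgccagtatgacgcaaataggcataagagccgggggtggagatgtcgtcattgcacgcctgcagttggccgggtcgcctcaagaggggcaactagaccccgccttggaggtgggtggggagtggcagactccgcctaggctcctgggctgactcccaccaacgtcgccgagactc
Itprid1 held 3 copies of CACCTG, all on the minus strand, at bases -101, -42 and 3 from the RefSeq start. The GENCODE gene starts at 55836895, inside the window, and all 3 copies lie past that start. Slain1 held 1 copy at -152 on the plus strand, and Ptprn held AGGTCA at -227. The GENCODE gene of Ptprn, on the minus strand, runs to 75264502, so its motif too lies inside the gene. CACCTG was in 20.2% of all 32851 promoter windows, in 53 of 189 windows (28.0%) of lower genes and in 35 of 244 windows (14.3%) of higher genes, where a gene may have several windows. AGGTCA was in 16.3% of all windows, in 9.52% of those of lower and in 9.43% of those of higher genes. A match of letters is a description and was not tested.

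Further down the lower set, several genes had low values in every Lats1-CKO library. Fam167a had 12.5, 11.1, 5.36 and 3.88 in Lats1-CKO, against 62.2, 96.3, 89.4 and 35.0 in WT, and was close to the call (log2 fold change -2.99 ± 0.37, SE, adjusted p = 0.0546 by limma). Creld1, a cell surface protein with EGF repeats, Mal2, a protein of transcytosis in polarized cells, and Nup210, a nuclear pore protein, had log2 fold changes of -2.79, -2.07 and -2.56. Ereg, the EGF receptor ligand epiregulin, had 2 reads in the Lats1-CKO libraries, against 61 in WT, a ratio of WT over Lats1-CKO of 22.3 (95% exact counting interval 5.92 to 189). Egfr, the receptor, was lower too, with 5.76 and 5.05 in luminal and 6.70 and 2.59 in basal-like Lats1-CKO cells, against 16.2 and 23.6 in luminal and 7.77 and 12.7 in basal-like WT cells (log2 fold change -1.38 ± 0.44, SE, adjusted p = 0.341 by limma). Areg, amphiregulin, another ligand of that receptor, overlapped, with 139, 127, 14.7 and 229 in Lats1-CKO against 232, 323, 275 and 110 in WT. In the list of growth factor receptors and PDGF ligands, which does not hold Ereg, Egfr was the 1 separating gene of 20 tested. Creld1, Mal2, Ereg and Egfr stayed under 10 in every Lats1-CKO library. They passed the filter through WT alone, which fixes their direction.

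C3, the central complement component, and Padi1, an enzyme that converts arginine to citrulline in proteins, were among the genes lower in both populations by the largest margin. C3 had 48.9, 4.04, 2.68 and 3.88 in Lats1-CKO, against 216, 76.6, 87.8 and 66.8 in WT. Lats1-CKO luminal replicate 1 came nearest to WT, as for many lower genes. Padi1 had 1.92 to 6.06 in Lats1-CKO, against 11.9 to 127 in WT, and so passed the filter through WT alone. Ctla2b and its neighbor and paralog Ctla2a, inhibitors related to a cysteine protease propeptide, were both lower, but reads can be split between such near-identical copies and their values are uncertain. The same holds for Ugt1a6b on the higher side, whose gene shares exons with its family. Ctla2b stayed under 10 in every Lats1-CKO library and Ugt1a6b in every WT library, so the filter fixed their direction.

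Collagen chains were the list in which most members separated. Of 15 tested chains 6 were higher in every Lats1-CKO library (Col3a1, Col5a3, Col6a1, Col6a2, Col6a3 and Col27a1) and 1, Col8a1, was lower, against 2.44% and 2.11% of all genes. Of the 6, Col3a1, Col5a3, Col6a3 and Col27a1 stayed under 10 in every WT library and so passed the filter through Lats1-CKO alone, which fixes their direction. With those chains included, the median log2 fold change of the list was 2.66, against -0.01 over all genes tested. In luminal cells 14 of 15 chains were positive, and in basal-like cells 13. The list was chosen with earlier results of these data known, so its counts are a description and no independent evidence. limma called 1 of the 15, Col6a2, against 0.0221% of all genes. DESeq2 called 8 higher and 1 lower, against 1.89% and 0.963% of all genes. Col3a1, Col5a3, Col6a3 and Col27a1, which the filter kept through Lats1-CKO alone, were among the 8. Col6a1, which joins Col6a2 in collagen VI and is its neighbor on chromosome 10, had 191, 496, 739 and 2453 in Lats1-CKO, against 126, 13.4, 40.4 and 173 in WT. Col6a3, the other partner, had 6.72, 13.1, 42.9 and 466 in Lats1-CKO, against 1.35, 1.28, 3.11 and 1.59 in WT. The highest value of all 3 was in Lats1-CKO basal-like replicate 2. Col3a1, a fibrillar collagen, had 3.84 and 3.03 in luminal and 238 and 38.8 in basal-like Lats1-CKO cells, against 0 and 0.638 in luminal and 1.55 and 1.59 in basal-like WT cells. Its luminal difference rested on a few reads. Col27a1, a cartilage collagen, was highest in the Lats1-CKO replicates numbered 2, those with the high cartilage sums, with 8.64, 273, 33.5 and 2634 in Lats1-CKO against 6.36 to 8.11 in WT. Col8a1, a short-chain collagen of basement membranes and vessels, went the other way, with 12.5, 3.03, 30.8 and 5.18 in Lats1-CKO against 39.2, 69.5, 99.5 and 93.9 in WT (log2 fold change -2.83 ± 0.57, SE).

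Bgn, the matrix proteoglycan biglycan, was the 1 separating gene of 22 tested genes of collagen processing and other matrix, with 1646 and 106 in luminal and 4408 and 575 in basal-like Lats1-CKO cells, against 46.0 and 24.9 in luminal and 24.1 and 85.9 in basal-like WT cells. Its log2 fold change was 4.34 ± 0.96 (SE, adjusted p = 0.176 by limma), and 18 of the 22 were positive with a median of 1.36. Among 15 mesenchymal genes 13 were positive and 1 separated, Tgfbi, a matrix protein induced by TGF-β, with 0.96, 2.02, 57.6 and 18.1 in Lats1-CKO against 0, 0, 0 and 0.796 in WT. Tgfbi passed the filter through Lats1-CKO alone. None of the 5 tested transcription factors of epithelial-mesenchymal transition separated. Snai2 came closest, at 6.72, 54.5, 16.1 and 38.8 in Lats1-CKO against 2.70, 3.83, 7.77 and 7.16 in WT. It too passed the filter through Lats1-CKO alone. Gas1, a membrane protein of growth arrest, and Rgcc, a regulator of the cell cycle, were higher in every Lats1-CKO library, with gaps of 0.98 and 0.90 on the log2 scale between the closest libraries.

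The 6 fibroblast markers in the table, of 8 listed, summed to 21.1 to 366 in the Lats1-CKO libraries, against 2.70 to 14.3 in the WT libraries. Collagen chains make up 3 of the 6 (Col1a1, Col1a2 and Col3a1), so the sum largely repeats the collagen values, and 4 of the 6 passed the filter. The other 3 (Dcn, Pdgfra and Thy1) summed to 14.4, 2.02, 107 and 32.4 in the Lats1-CKO libraries, against 2.70, 3.83, 1.55 and 4.77 in WT. Lats1-CKO luminal replicate 2 lay within the WT range for these 3. The defining marker Dcn was at 0 in every library but Lats1-CKO basal-like replicate 2, where it had 12.9. Cartilage genes, 11 of 16 listed, summed to 301 and 447 in the replicates numbered 1 of Lats1-CKO and to 5128 and 32000 in those numbered 2, against 454 to 700 in WT, so that the genotypes overlapped. The 3 immune markers in the table summed to 6.06 to 89.3 in Lats1-CKO, against 8.75 to 21.7 in WT. The 1 endothelial marker had 0 to 18.8 against 0 to 0.638, and the 1 fat cell marker 1.01 to 37.5 against 0 to 2.39. By mass cytometry the paper found Lats1-CKO cultures enriched, to a varying extent, in cells it defined as fibroblasts by LATS1 and CD44. Those were cultures before this sorting. The part of such cells in the matrix result was not tested, and in bulk libraries fewer cells of a type and less RNA per cell cannot be told apart.

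**Figure D2:**
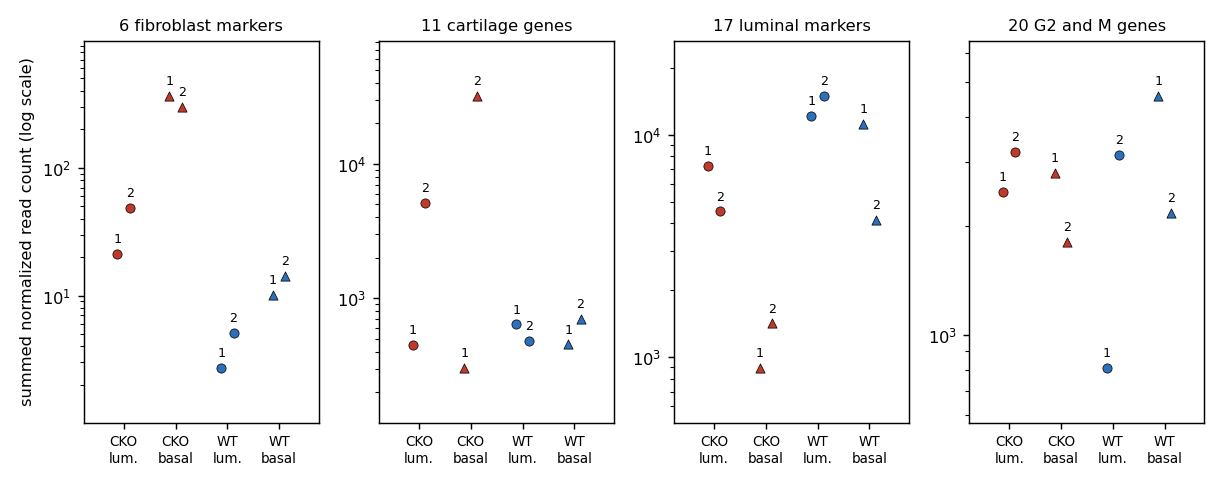
Summed normalized read count (log axis) of 6 fibroblast markers, 11 cartilage genes, 17 luminal markers and 20 genes of the G2 and M phases in each library, red for Lats1-CKO on the left of each panel and blue for WT, circles luminal and triangles basal-like, with the replicate number above each point. Fibroblast sums were 21.1 to 366 in Lats1-CKO against 2.70 to 14.3 in WT, while cartilage sums were high only in the Lats1-CKO replicates numbered 2.

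Genes of luminal identity and of epithelial junctions mostly had negative fold changes in Lats1-CKO. Of 37 tested genes of junctions and epithelial splicing 36 had a negative fold change, with a median log2 value of -1.67, against -0.01 over all genes, and 1 separated, a share near the 2.11% of all genes. That was Cdh1, E-cadherin (chromosome 8, 106603351 to 106670246, plus strand), with 369 and 398 in luminal and 21.4 and 19.4 in basal-like Lats1-CKO cells, against 501 and 539 in luminal and 400 and 444 in basal-like WT cells. The gap was 0.0094 on the log2 scale and was lost under TMM and total scaling. The medians were -0.43 in luminal and -2.85 in basal-like cells, with 32 and 37 of 37 negative. Over both populations DESeq2 called 7 lower, against 0.963% of all genes. Among 14 tested luminal markers 12 were negative, 0 separated, limma called 0 and DESeq2 called 3 lower, against the same 0.963%. Krt18 came nearest, at 1477, 652, 54.9 and 104 in Lats1-CKO against 3387, 3746, 2450 and 1386 in WT. Lats1-CKO luminal replicate 1 lay above WT basal-like replicate 2 there. Epcam, the gene of a sorting antigen, had 511 and 555 in luminal and 10.7 and 33.7 in basal-like Lats1-CKO cells, against 708 and 523 in luminal and 562 and 255 in basal-like WT cells. The WT basal-like libraries, sorted as EpCAM-low, thus held more Epcam RNA than either Lats1-CKO basal-like library. Itga6, which encodes CD49f, overlapped between the genotypes, with 81.6, 338, 48.2 and 195 in Lats1-CKO against 165, 139, 139 and 182 in WT.

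Of 10 tested basal markers 6 were positive and 0 separated. Krt5 had 29.8, 4881, 22.8 and 24.6 in Lats1-CKO against 21.6, 21.7, 31.9 and 18.3 in WT, high in Lats1-CKO luminal replicate 2 alone. Krt14 had 3019, 14720, 125 and 681 in Lats1-CKO against 3830, 1971, 2098 and 1098 in WT, and was low in the Lats1-CKO basal-like libraries. The defining basal keratin Krt5 was therefore not high in any library sorted as basal-like.

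The genotype difference was then compared between the populations. In limma with a coefficient for each group, the interaction was called for 0 of 9031 genes (0.0%), and 210 had an unadjusted p below 0.05. edgeR also called 0 (228 below 0.05 before adjustment), while DESeq2 called 24 (0.266%), of which 23 were more negative in basal-like cells. Among separating genes the medians were 0.87 in luminal and 1.16 in basal-like cells for the 220 higher and -0.74 and -0.95 for the 191 lower, on the log2 scale. The basal-like difference was the larger for 161 and 121 of them, and 88 and 61 differed by at least 2-fold in both populations. Of the 411, 8 higher and 8 lower genes had an unadjusted interaction p under 0.05. The lowest belonged to Cdh1, with -3.86 ± 0.35 (SE, adjusted p = 0.0652 by limma) for the basal-like minus the luminal log2 fold change. Serinc2, a carrier that brings serine into membranes, followed, with 350 and 309 in luminal and 12.1 and 6.47 in basal-like Lats1-CKO cells, against 676 and 448 in luminal and 451 and 430 in basal-like WT cells, and an interaction of -4.74 ± 0.51 (SE, adjusted p = 0.0912 by limma). Both separated all 8 libraries and yet had most of their difference in basal-like cells.

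**Figure D3:**
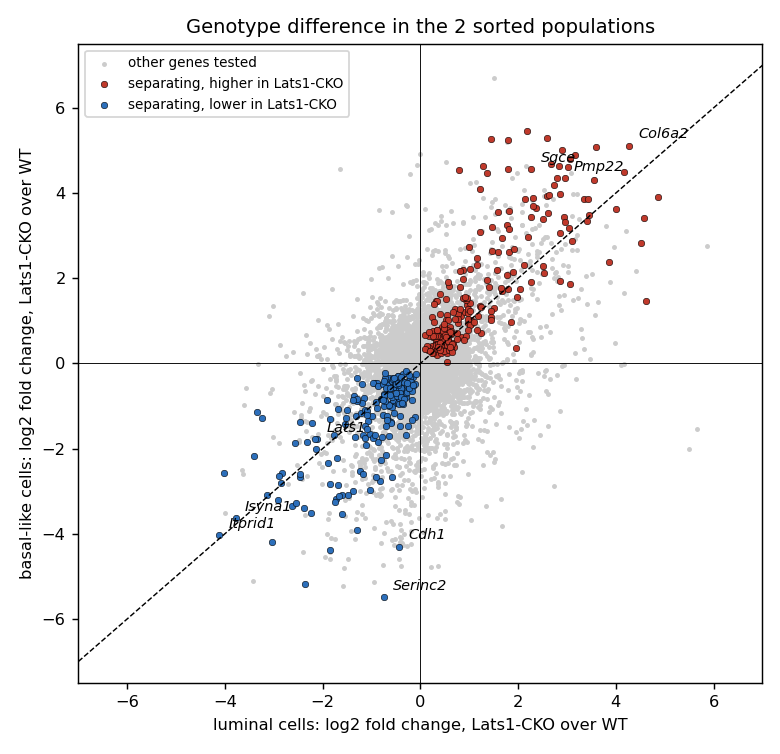
Log2 fold change of Lats1-CKO over WT in luminal cells (horizontal axis) and in basal-like cells (vertical axis), 1 point a gene, with grey for other genes tested, red for the 220 separating genes higher in Lats1-CKO and blue for the 191 lower. Most colored points lie farther from 0 on the basal-like axis than on the luminal axis, beyond the dashed line of equal change, and Cdh1 and Serinc2 are at only -0.44 and -0.74 for luminal cells.

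Targets of YAP and TAZ were split in direction. Of 22 tested 10 were positive and 12 negative, with a median of -0.12, and 1 separated in each direction. F3, tissue factor, had 99.8, 71.7, 232 and 141 in Lats1-CKO against 59.5, 38.3, 38.1 and 70.01 in WT (log2 fold change 1.30 ± 0.34, SE, adjusted p = 0.270 by limma). Ankrd1, a widely used reporter of YAP activity, was lower, with 120 and 50.5 in luminal and 157 and 82.8 in basal-like Lats1-CKO cells, against 443 and 431 in luminal and 472 and 187 in basal-like WT cells (log2 fold change -1.92 ± 0.43, SE, adjusted p = 0.176 by limma). Of the 8 genes of YAP, TAZ, TEAD and VGLL proteins 4 were positive and 4 negative, and 0 separated.

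The other lists held few or no separating genes. Over all genes 2.44% were higher and 2.11% lower, so few or none is usual for lists this short. These counts therefore say little about their members. The same holds for the short lists above with 0 or 1 such gene. Of the genes that the study assayed one by one, 6 were tested, all positive with a median of 1.42, and 0 separated. Since the study may have picked them from these libraries, that direction is not independent evidence. Col5a1 among them had a log2 fold change of 2.66 ± 0.38 (SE, adjusted p = 0.0985 by limma) and overlapped through WT basal-like replicate 2, with 78.7, 45.4, 229 and 243 in Lats1-CKO against 5.41, 7.66, 27.2 and 81.9 in WT. None of 9 genes of the NCOR corepressor complex, 13 enzymes of histone H3K27 and H3K36 marks, 7 estrogen response genes, 13 epithelial transcription factors, 21 interferon and MHC class I genes, 17 G2 and M phase genes or 16 S phase genes separated. Fasn, fatty acid synthase, was the 1 of 20 lipid synthesis genes that did (lower), Phlda3, a p53 target that inhibits AKT, the 1 of 13 p53 targets (higher), and Sgce the 1 of 10 imprinted genes.

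**Figure D4:**
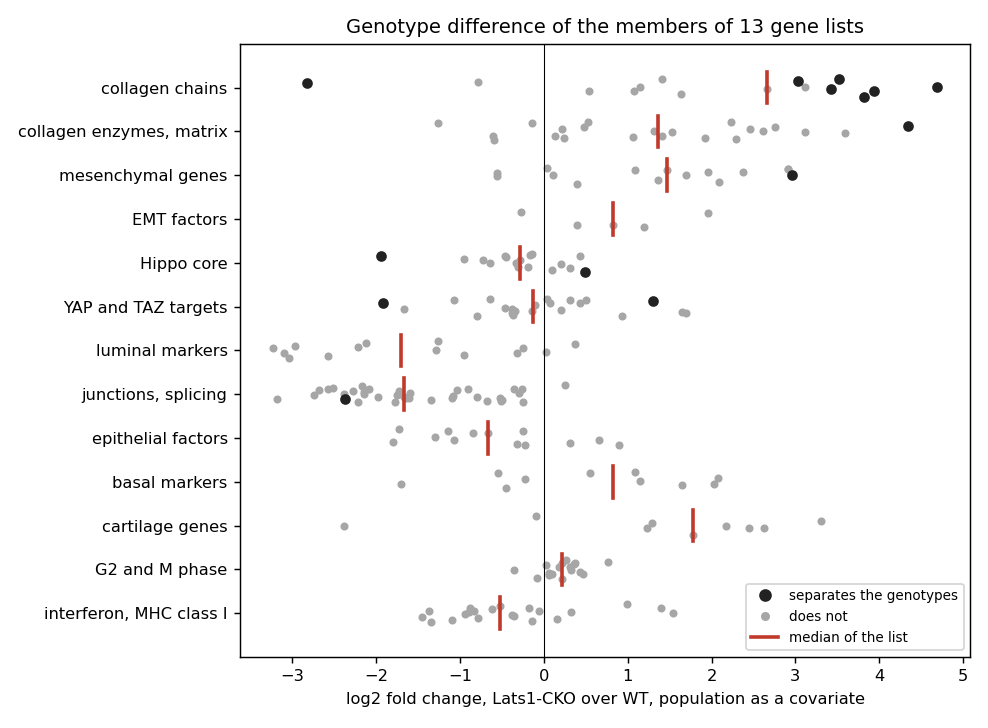
Log2 fold change of Lats1-CKO over WT with population as a covariate (horizontal axis) for the tested members of 13 gene lists, 1 point a gene, black where the gene separated the genotypes and grey where it did not, with a red bar at the median of the list. Collagen chains had a median of 2.66 with 7 black points, while junction genes had a median of -1.67 with 1.

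Separating genes were spread over the genome, with 2.70% (chromosome 19) to 6.28% (chromosome 11) of the tested genes of a chromosome. On chromosome 10, which carries Lats1, 17 of 421 tested genes (4.04%) separated. Within 20 Mb of the Lats1 start 6 of 58 tested genes separated, Lats1 included, against 4.55% of all genes tested. That start is at base 7681214, so the window is uneven, with tested genes at -4.32 to 18.6 Mb from it. Of the 6, Armt1 and Tab2 separated by only 0.013 and 0.081 on the log2 scale. Lrp11, a membrane protein of the LDL receptor-related family whose gene starts 0.0914 Mb before that of Lats1 (7589800 to 7625483), had 23.99 and 9.08 in luminal and 56.3 and 27.2 in basal-like Lats1-CKO cells, against 2.70 and 4.46 in luminal and 2.33 and 2.39 in basal-like WT cells, a log2 fold change of 2.70 ± 0.55 (SE, adjusted p = 0.145 by limma). Nup43, which lies between them, did not separate, with 17.3, 16.2, 18.8 and 6.47 in Lats1-CKO against 13.5, 33.8, 36.5 and 12.7 in WT. Lrp11 passed the filter through Lats1-CKO alone. Cnksr3, a scaffold of epithelial sodium transport on the same side, had 64.3 to 73.8 in Lats1-CKO against 30.0 to 52.5 in WT, and Tab2, an adaptor of the TAK1 kinase on the other side, had 86.8 to 96.4 against 102 to 119. Katna1, Ginm1 and Ppil4, the nearest genes on that side, overlapped between the genotypes. These neighbors were chosen for their position after the values were known.

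**Figure D5:**
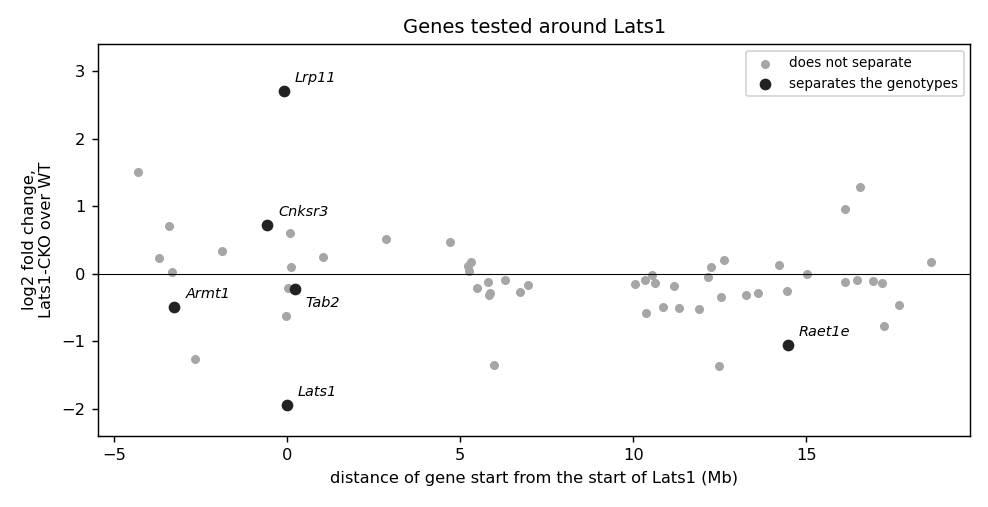
Log2 fold change of Lats1-CKO over WT for 58 tested genes against the distance of each gene's start from that of Lats1 in Mb, black where the gene separated the genotypes and grey where it did not. Lrp11, at 2.70, and Lats1, at -1.95, stand farthest from 0 in the window.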

How the data were processed

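RNA from 8 libraries (2 each of Lats1-CKO luminal, Lats1-CKO basal-like, WT luminal and WT basal-like cells) was profiled by MARS-seq, and groups were taken from the sample labels. Reads were trimmed with cutadapt, aligned to mm10 with STAR and counted per gene with htseq-count (union mode), after genes had been extended by 1000 bases at the 5' and 100 at the 3' edge. The authors kept genes with 5 or more reads in some library. The Gencode version, the strand setting and any use of molecular identifiers are not given in the sources used here, so overlapping and antisense genes cannot be told apart. The deposited values are a signal per gene, in which the authors had scaled each count by a DESeq2 size factor. The table also holds the authors' fold changes and p-values for pairs of groups, which were not used. Dividing by the worth of 1 read gave whole reads for 100% of values (tolerance 1e-06).

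Genotype and population were fitted as additive terms in limma 3.58.1 under R 4.3.3 (trended prior, 5 residual degrees of freedom, Benjamini-Hochberg adjustment) to log2(value + 1) of 9031 genes that reached 10 in 2 or more libraries. Changes of weakly expressed genes are understated on this scale. For the interaction each group had its own coefficient, which left 4 degrees of freedom. Alternatives were other pseudocounts, filters and scalings, no trend, other models, edgeR 4.0.16 and DESeq2 1.42.0 on the recovered reads, and leaving out each library. The scripts were tested on simulated data. Separation compared the deposited values. Coordinates are from GENCODE M21 (GRCm38), in which 10742 of 10924 symbols had 1 record. Promoters are from RefSeq and were matched by symbol for 176 of 220 higher and 151 of 191 lower genes. The members and the 27 gene lists were chosen with earlier results of these data known. Named were the 7 genes the study assayed, Lats1, Lats2 and sorting or lineage markers, the 15 separating genes of largest gap in each direction, up to 12 called separating genes a direction by fold change, the 8 a direction whose smaller difference within a population was largest, up to 4 members a list, called genes nearest the edge of separation, the 5 genes of lowest interaction p and the 4 of lowest p among called genes that overlap. Not every gene that qualified is described, and some withheld results are not reported here. Genes next to Lats1, and others marked so, were named after their values were seen.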

Additional observations from a re-analysis of the deposited data

Results flagged for a closer look

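Pkp3, plakophilin 3 of the desmosome, and Urah, an enzyme of urate breakdown, had genotype differences of opposite direction in the populations, and both were named for their low interaction p. Pkp3 had 385 and 441 in Lats1-CKO luminal cells, against 333 and 323 in WT luminal cells, and 13.4 and 16.8 in Lats1-CKO basal-like cells, against 246 and 158 in WT basal-like cells. The basal-like minus the luminal log2 fold change was -3.96 (adjusted p = 0.0912 by limma), which missed the threshold. Urah had 231 and 315 in Lats1-CKO luminal cells, against 176 and 98.2 in WT luminal cells, and 2.68 and 3.88 in Lats1-CKO basal-like cells, against 73.1 and 39.0 in WT basal-like cells, with -4.71 for the same contrast (adjusted p = 0.224 by limma). Both were picked out because every library of one population moved one way and every library of the other the opposite way. Neither separates all 8 libraries.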

How the results depend on the processing

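Against 2 genes called, limma called 0 with a pseudocount of 0.5, with 10 required in 4 libraries, without the intensity trend and without the population covariate, 1 with a pseudocount of 5, 4 without a filter and with TMM scaling, and 26 with a coefficient per group. edgeR called 0, DESeq2 258 and DESeq2 with the study's settings 213. Leaving out 1 library gave 0 to 5. The interaction, with 0 calls, gave 24 in DESeq2 and 0 to 2 without 1 library. Requiring a gap of 1 on the log2 scale left 31 separating genes, 19 higher and 12 lower. Without 1 library 511 to 1029 separated (274 to 532 higher, 237 to 497 lower). Lats1 was at 23.86% of WT, a level that permuting the labels cannot change. With labels permuted within each population, the permutation p could not fall under 0.0556. Without 1 library Lats1 was at 21.6% to 27.68% of WT. The direction turned in 18 of the fits of 9 named genes, none of them separating or called by limma. Itga6, -0.28 on the log2 scale, was 0.04387 in edgeR, 0.03462 in DESeq2, 0.03862 with the study's settings and -0.7764 to 0.1984 without 1 library. Krt14, at -0.55, was 0.3309 with the study's DESeq2 settings and -1.371 to 0.305 without 1 library. Kif20a, at 0.37, was -0.0292 in edgeR, -0.03109 in DESeq2, -0.02916 with the study's settings and -0.415 to 0.8969 without 1 library. Without 1 library Ctsd ranged over -0.1895 to 1.203, Psmb8 -0.347 to 2.683, Bub1b -0.07092 to 0.8708, Cenpe -0.1095 to 0.9014, Mcm5 -0.1749 to 0.7017 and Mcm6 -0.1824 to 0.6955. The cause was not tested. Col6a2 lost its call in 13 of 20 fits. No paired analysis was possible because the labels give no replicate number shared between groups and do not say which libraries were made together, and the numbers used here follow the order of the samples. With 2 libraries a group and 1070358 to 2334446 reads each, differences of genes with a few reads were not resolved.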
